A study of Bos taurus with 14 samples.

Results

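The miR-151 hairpin and its relative miR-28 were followed in the milk small extracellular vesicles (sEVs) of 14 cows. They were chosen by name, as the entries for bta-miR-151-5p, bta-miR-151-3p and bta-miR-28, and all 3 were present among the 350 miRNA/precursor entries, which carry 268 mature miRNA names. They were chosen with the counts of these cows known, so the levels and the diet difference below are a description, and no test of the members is independent of the choice. The control group held 7 Holstein cows with subclinical mastitis on a total mixed ration. The inulin group held 7 such cows on the same ration with 300 g/d of inulin, a fermentable plant fibre, for 5 wk after 1 wk of adaptation. The paper divided the cows at random. By its account the control cows had more days in milk and a higher milk yield on average, neither a significant difference there. The part of these traits in the differences below was not tested. Every cow had subclinical mastitis and every library came from milk of the last day, so no healthy cow and no sample from before the diet enters any comparison. Each library is 1 cow.

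A miRNA is cut from a hairpin with an arm on either side of its loop, and either arm can be loaded into the silencing complex, where bases near its 5′ end find the target messenger RNA. The hairpins mir-28 and mir-151 belong to 1 family and are known to descend from LINE-2 elements, old mobile DNA, as do mir-708 and mir-95. The 5p arms of mir-151 and mir-28 share most of a stretch of sequence, shifted against their 5′ ends, so that the bases that find targets differ between them. miR-151 is known from cell migration, and miR-28 from restraint of B cell growth. In the RefSeq annotation of assembly ARS-UCD2.0 mir-151 lies within PTK2, which encodes the focal adhesion kinase, and mir-28 within LPP, which encodes a LIM domain protein of cell adhesions. The submitters name assembly ARS-UCD1.2, so no positions are given.

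Depth differed widely between libraries. The total miRNA count of a cow ran from 4165 to 415020 among control cows and from 14822 to 265214 among inulin cows. Control cow 5 was the deepest and control cow 2 the shallowest, and at these depths 3 counts, the number that a count of 0 still allows, equal 0.000723% and 0.072% of the total. The table repeats a mature miRNA under each of its precursors, so reads of let-7a-5p were added into a total several times. Of the miRNA fixed as markers of mammary epithelium and milk, 7 of 7 were present, with a summed share of 0.360% to 1.55% in control cows (median 0.556%) and of 0.602% to 1.05% in inulin cows (median 0.798%). Of the leukocyte markers 6 of 7 were present, at 0% to 0.086% (median 0.047%) and 0.00454% to 0.0486% (median 0.0405%). Of the red blood cell markers 1 of 3 was present, miR-486, at no more than 0.00539% and 0.00675%, and miR-451 and miR-144 had no entry under these names. These sums do not show single markers. The epithelial miR-200c alone had a mean share of 0.531% in control cows and 0.534% in inulin cows. In the edgeR fit described below, the log2 fold changes of the epithelial markers ran from -1.19 (miR-200b) to 1.10 (miR-375). Those of the leukocyte markers tested ran from -4.46 (miR-142-5p) to 0.17 (miR-155). None had an adjusted p under 0.05 from edgeR. The part of these cell types in the differences below was not tested.

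miR-151-5p had far more counts than the other 2 members. miR-151-5p/mir-151 (MIMAT0003523, 21 nt) had 8017 counts over all cows, miR-151-3p/mir-151 (MIMAT0003524, 21 nt) had 157, and miR-28/mir-28 (MIMAT0009272, 22 nt, listed without an arm) had 44. Each had 1 precursor, and 0 other entries had the same counts in every cow, so none of the 3 shares its line of counts with another miRNA. By the mean share per cow, with 1 precursor taken per mature miRNA, miR-151-5p had rank 13 of 268, miR-151-3p rank 70 and miR-28 rank 109. Of their LINE-2 relatives miR-95 had 3 counts, all in control cow 5, and miR-708 had 0 entries.

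In the control group miR-151-5p made up 0.264% of the counts in the lowest cow, 0.380% in the median cow and 0.433% in the highest. In the inulin group it made up 0.480%, 0.593% and 0.627%, respectively. Every inulin cow was above every control cow. The mean share was 0.384% ± 0.060 in control cows and 0.564% ± 0.0625 in inulin cows (SD, n = 7 each), 46.9% higher with inulin. No other entry of the table had groups that did not overlap: this held for 1 of 350 entries, which is 0.286%, and for 1 of the 40 entries with a count in all cows, which is 2.5%. Because miR-151-5p was chosen with these shares known, nothing further is read from the separation. In vesicles of whole milk a different number of vesicles from a cell type and a different amount of miRNA per vesicle cannot be told apart.

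**Figure D1:**
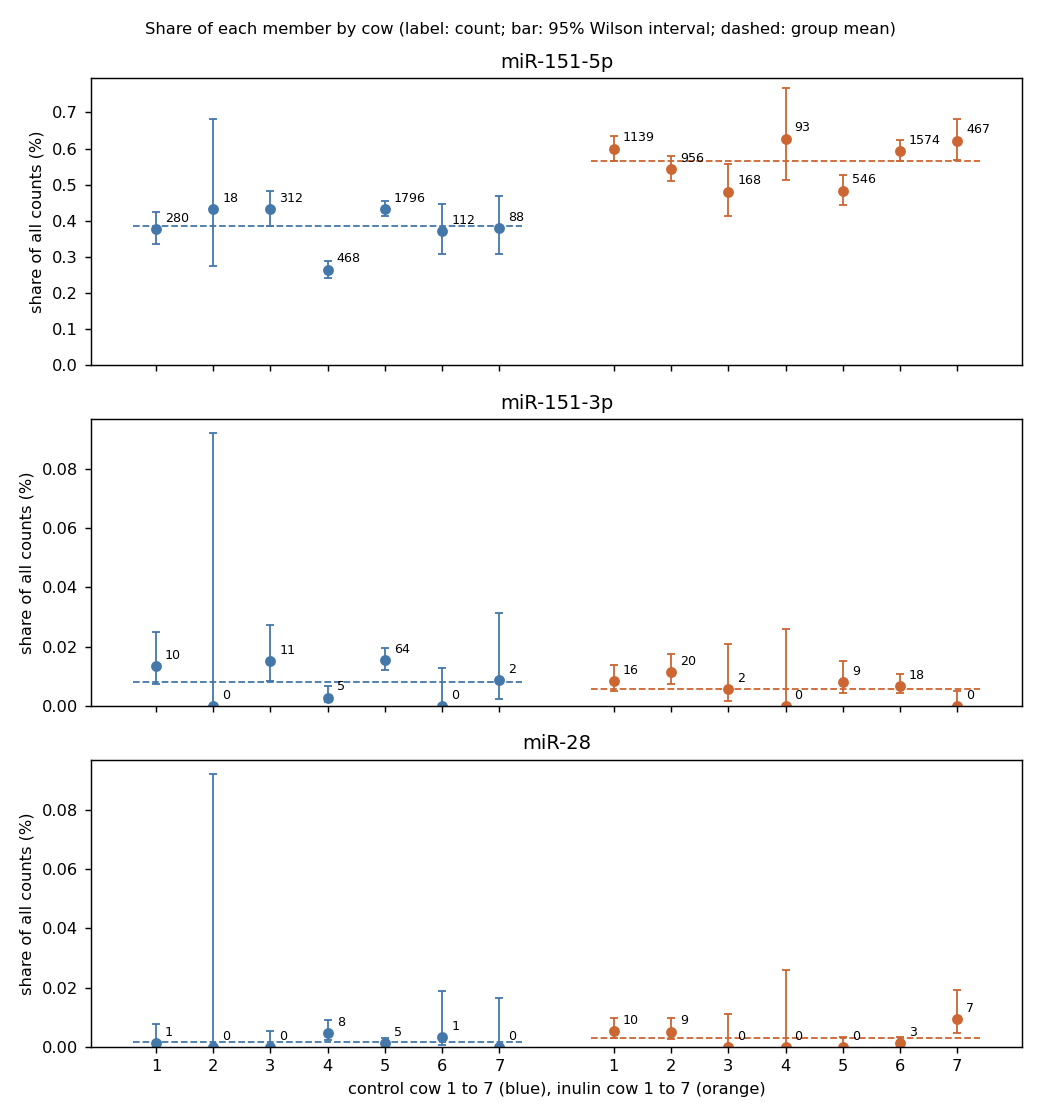
Share of miR-151-5p, miR-151-3p and miR-28 in the miRNA counts of each cow, in percent, with the count beside each point, the 95% Wilson interval as a bar and the group mean as a dashed line. The inulin cows lie between 0.480% and 0.627% for miR-151-5p, above all control cows, while both groups overlap for miR-151-3p and miR-28.

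Counting error was wide in some of these libraries. The share of control cow 2 rests on 18 counts, with a 95% Wilson interval of 0.274% to 0.682% that spans both groups. In control cow 5, with 1796 counts, the interval was 0.413% to 0.453%, and in control cow 4, the lowest cow, it was 0.241% to 0.289%. The intervals of inulin cow 3 (0.413% to 0.558%) and inulin cow 5 (0.445% to 0.525%) reached into those of control cows. The other 5 inulin cows had lower bounds of 0.510% or more, above the upper bound of every control cow except cow 2. These intervals cover counting error only. With any 1 cow left out, the difference of the means was between 0.160 and 0.194 percentage points.

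The separation went with the total used. In total counts of miR-151-5p the groups overlapped, with 18 to 1796 counts in control cows and 93 to 1574 in inulin cows. With 1 precursor per mature miRNA in the total, the share was 0.339% to 0.768% in control cows and 0.705% to 1.06% in inulin cows, so that 6 of 7 inulin cows were above every control cow. The let-7 entries took 41.1% to 88.0% of the counts in control cows and 62.6% to 91.2% in inulin cows. Without them miR-151-5p made up 1.70% ± 0.981 of the remaining counts in control cows and 3.76% ± 1.91 in inulin cows (SD, n = 7 each). These groups overlapped, with 0.448% to 3.16% against 1.29% to 6.17%. Set against let-7 alone it was 0.586% ± 0.157 and 0.719% ± 0.134 (SD, n = 7 each), again with overlap. The highest control cow there was cow 2, at 0.896% from 18 counts. The next, cow 4 at 0.643%, was still above the lowest inulin cow, at 0.543%.

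miR-1246 and miR-423-5p, which the table lists among the abundant miRNA, together took 1.87% to 50.8% of the counts in control cows (mean 21.7%) and 1.51% to 27.5% in inulin cows (mean 8.39%). In control cow 4, where miR-151-5p was lowest, they took 50.8%. With both left out of the total, a choice made after seeing the data, the share of miR-151-5p was 0.511% ± 0.126 in control cows and 0.620% ± 0.0734 in inulin cows (SD, n = 7 each). The groups then overlapped, from 0.394% to 0.762% against 0.496% to 0.708%, and 7 of 7 inulin cows stayed above the control median. The mean was 21.3% higher with inulin on this total, against 46.9% on all counts. With miR-1246 alone left out it was 32.1% higher, and 2 of 7 inulin cows were above every control cow. On both of these totals the highest control cow was cow 2, with 18 counts of miR-151-5p. With both left out, the next control cow, 0.545%, was still above the lowest inulin cow. With miR-1246 alone left out, cow 2 was at 0.636%, the next control cow at 0.465% and the lowest inulin cow at 0.481%. That overlap thus rested on cow 2 alone.

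**Figure D2:**
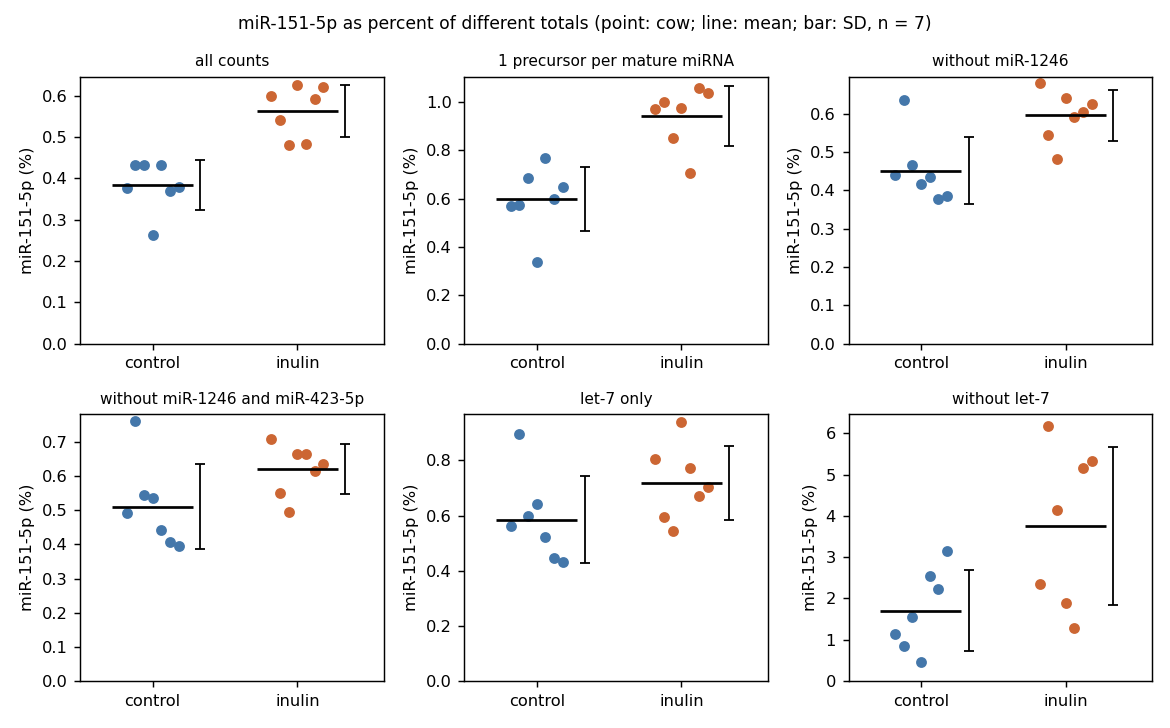
Counts of miR-151-5p in each cow as percent of 6 different totals, with the mean and SD of 7 cows per group. The groups do not overlap for all counts, and they overlap for each of the other totals, where the inulin mean is still higher. With miR-1246 alone left out, the overlap rests on control cow 2, the shallowest library.

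Normalization across all miRNA gave the same direction with more overlap. Counts were scaled to CPM, counts per 1000000 of a total that the TMM method of edgeR adjusts for each cow. The factors of this adjustment ran from 0.742 in control cow 4 to 1.46 in control cow 7. On this scale miR-151-5p was 2600 CPM in the lowest control cow, 3801 CPM in the median and 4896 CPM in the highest. In the inulin group it was 4098, 5909 and 7037 CPM, respectively. The group means were 3835 ± 870.9 CPM and 5776 ± 1070 CPM (SD, n = 7 each), and 5 of 7 inulin cows were above every control cow. The quasi-likelihood test of edgeR gave a log2 fold change of 0.59 (standard error 0.371), 1.51-fold higher with inulin, with an adjusted p of 0.835 over 210 entries. The paper calls an entry where P is under 0.05 before adjustment and the log2 fold change is above 1 in size, and miR-151-5p did not pass this rule.

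By this rule 19 of 210 entries were called, which is 9.05%, and 0 of the 3 members were. With an adjusted p under 0.05 from edgeR, 0 of 210 entries were called, which is 0%, against 19 with an unadjusted p under 0.05 and 0 after adjustment with DESeq2 and limma-voom. The median log2 fold change over the 210 entries was -0.40, and relative to it miR-151-5p was higher by 1.00. By its unadjusted p miR-151-5p had rank 31 of 210. The fit moved the variability of single entries toward that of all entries, with a common dispersion of 1.43, and that of miR-151-5p was 0.417, the 5th lowest of 210. The call depended on the scaling: with TMMwsp, which treats entries with a count of 0 differently, edgeR gave a log2 fold change of 1.10 with a standard error of 0.448 (adjusted p = 0.266) that passed the rule, as did 9.52% of all entries. There the median of all entries was 0.072, and relative to it miR-151-5p was higher by 1.03.

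As a share of all counts miR-151-5p varied less between cows than most of the miRNA counted in every cow. Over the 31 mature miRNA with a count in all 14 cows, the coefficient of variation (CV) of the share, the SD as percent of the mean, had a median of 59.5% over control cows and 37.8% over inulin cows. For miR-151-5p it was 15.6% over control cows, the lowest of the 31, and 11.1% over inulin cows, where only miR-30d was lower at 7.09%. Counting error alone gives a CV of about 11.0% and 5.76% at these counts, the root mean square over the cows of a group. Its highest share over all 14 cows was 2.38 times the lowest, against a median of 6.79 times over the 31. Of the other miRNA only let-7a-5p had a lower CV over all cows, 21.9% against 23.3% for miR-151-5p. On other totals the spread of miR-151-5p was wider: its CV was 22.7% over control cows and 18.5% over inulin cows in TMM-scaled CPM, and 57.7% and 50.9% with let-7 left out of the total. miR-7 at 158% and miR-1246 at 132% were among the most variable. Of the 31 names, miR-2284x, miR-2284y and miR-2285av have the same counts in every cow.

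**Figure D3:**
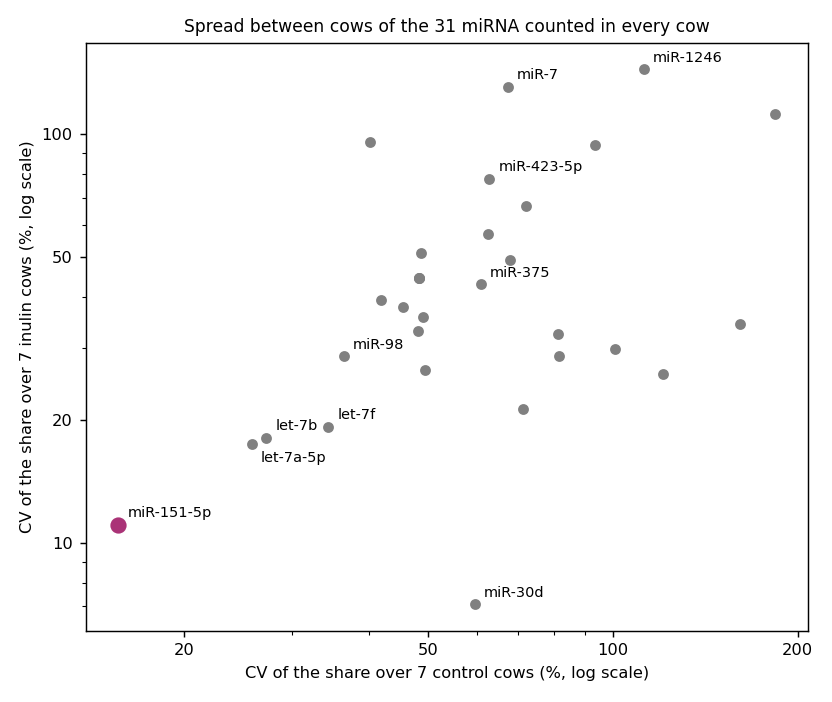
Coefficient of variation of the share over 7 control cows and over 7 inulin cows, in percent on log axes, for the 31 mature miRNA counted in every cow. miR-151-5p has the lowest value over control cows (15.6%), and over inulin cows only miR-30d (7.09%) is below its 11.1%.

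In the order of mean shares the neighbours of miR-151-5p did not stand apart from it. Above it were miR-26a, at 0.621% ± 0.397 (SD, n = 14), and the epithelial miR-200c, at 0.532% ± 0.219 (SD, n = 14). miR-151-5p itself was at 0.474% ± 0.110 (SD, n = 14). Below it were miR-7, at 0.410% ± 0.650, and miR-184, at 0.315% ± 0.554 (SD, n = 14 each). The distances between these means were smaller than the spread of the neighbours, whose cows ranged over both sides of it. The rank of miR-151-5p was 13 with control and 12 with inulin, and in single cows it ran from 8 in inulin cow 7 to 15 in control cows 1, 4 and 5.

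A ratio to another miRNA of the same library does not use the total. The log2 ratio of miR-151-5p to each of 16 abundant miRNA, with 0.5 counts added to both, was higher on average in the inulin group for 14 of them and lower for 2. The median difference was 0.51, and 0 of the 16 ratios had groups that did not overlap. Because all 16 ratios hold the same counts of miR-151-5p, they are not separate observations of it. The largest difference was that to miR-1246, at -3.91 ± 2.39 in control cows and -1.30 ± 2.79 in inulin cows (SD, n = 7 each). The ratio to miR-423-5p was -4.01 ± 1.53 and -2.31 ± 1.01 (SD, n = 7 each), with 7 of 7 inulin cows above the control median.

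Against let-7f, a let-7 form with a low spread between cows, the log2 ratio was -2.51 ± 0.396 and -1.94 ± 0.304 (SD, n = 7 each), a difference of 0.57. Against let-7a-5p and let-7b, the most abundant miRNA of these vesicles, the difference was 0.33 and 0.21, and the SD of each group was between 0.321 and 0.396. Differences of 0.38 to 0.67 were found against let-7g, let-7i, miR-16a, miR-26a, miR-30d, miR-191, miR-200c and miR-320a, and one of 0.22 against let-7c. The ratio to miR-30d was 0.90 ± 0.819 in control cows and 1.35 ± 0.125 in inulin cows (SD, n = 7 each). Its highest control value, 2.40, was that of control cow 2, which had 18 counts of miR-151-5p. The wider control SD thus rests in part on the shallowest library. miR-30a-5p kept nearly the same ratio, at 1.25 ± 1.22 and 1.23 ± 0.416 (SD, n = 7 each). The ratio to miR-7 was lower with inulin, by a difference of -0.28, with an SD of 1.87 and 3.22.

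**Figure D4:**
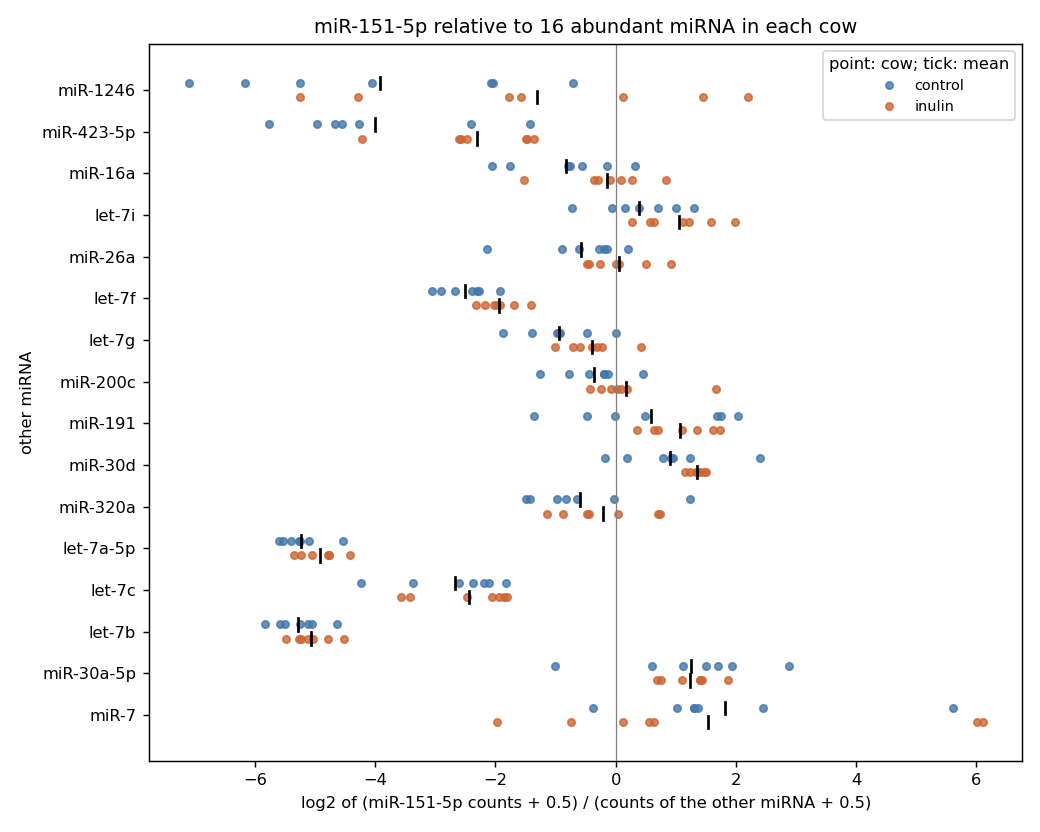
Log2 ratio of miR-151-5p to 16 abundant miRNA in each cow, ordered by the difference of the group means, which are drawn as ticks. The inulin mean lies to the right for 14 of 16 miRNA, and the cows of both groups overlap in each.

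Likeness to miR-151-5p was measured as Spearman's rho of the log2 share over 14 cows with the 30 other miRNA counted in every cow. It is a description of libraries that share their totals and differ in depth. The highest values were those of miR-375, known from secretory cells (0.57), miR-141 of the epithelial miR-200 family (0.49), miR-30a-5p (0.42), let-7c (0.39) and miR-320a (0.38). The lowest were the shared counts of miR-2284x, miR-2284y and miR-2285av (-0.57), and miR-423-5p (-0.46). As the groups of miR-151-5p do not overlap, these values mix the diet difference with the differences among cows. Within the control group rho with miR-375 was -0.29 and within the inulin group 0.25 (n = 7 each), and with miR-141 it was 0.39 and 0.18. For let-7c rho was 0.11 and 0.79, and for miR-320a it was 0.54 in both groups. These values went with the total: with let-7 left out of it, rho over all cows was higher for 20 of the 22 compared miRNA not named let-7, with a median of 0.70 against 0.033, and 4 of them were above miR-375, at 0.86, so that the order given here holds for shares of all counts only.

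miR-151-3p, the other arm of the same hairpin, had at least 1 count in 10 of 14 cows, 5 in each group, and at least 3 counts in 8, 4 in each group. In control cows it had 0 to 64 counts with a median of 5, and in inulin cows 0 to 20 with a median of 9. Control cow 5 alone held 64 of the 92 counts of its group. As a share it made up 0.00794% ± 0.00698 of the counts in control cows and 0.00575% ± 0.0043 in inulin cows (SD, n = 7 each). The groups overlapped, and 1 of 7 inulin cows was above the control median, which is the value of control cow 7 with 2 counts. Its neighbours in mean share were miR-11971 and miR-425-5p above it and miR-29b and miR-130b below it, all within 0.00622% to 0.00724% and with SDs of 0.00632% or more over 14 cows. The edgeR fit gave it a log2 fold change of -0.36 with a standard error of 0.965 (adjusted p = 0.985 from edgeR), higher by 0.038 than the median of all entries. The sign changed with the settings: it was 0.068 with TMMwsp, 0.023 with let-7 left out and 0.20 without control cow 3.

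The 5p arm dominated mir-151 in every cow. Over all cows there were 51.1 counts of miR-151-5p for each of miR-151-3p, and the 3p arm was 1.92% of both (95% Wilson interval 1.64% to 2.24%). In the summed counts of each group, the 3p arm was 2.91% of 3166 counts with control and 1.30% of 5008 with inulin, with intervals of 2.38% to 3.55% and 1.02% to 1.65%. Without control cow 5 the control value was 2.14% (1.49% to 3.08%), and the 2 intervals overlapped. These intervals of summed counts cover counting error only and leave out the differences between cows, so they cannot compare the diets. Per cow the 3p arm was 1.94% ± 1.58 of both arms in control cows and 1.05% ± 0.782 in inulin cows (SD, n = 7 each). The difference of -0.887 points was smaller than the control SD and larger than the inulin SD. The groups overlapped, and 0 of 7 inulin cows were above the control median of 2.22%. That median is the value of control cow 7, with 2 counts of the 3p arm among 90 (95% Wilson interval 0.612% to 7.74%). The intervals of inulin cows 1 to 5 reached above it, and those of inulin cows 6 and 7 did not.

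Among the 10 cows with at least 1 count of the 3p arm it ranged from 1.06% in control cow 4 to 3.45% in control cow 1. Control cows 1, 3 and 5 were nearly alike, at 3.45%, 3.41% and 3.44%. The inulin cows with the arm lay between 1.13% in cow 6 and 2.05% in cow 2. The interval of control cow 5 (2.70% to 4.37%) did not reach those of inulin cow 6 (0.716% to 1.78%) and control cow 4 (0.452% to 2.45%). These cows were picked after their values were seen, so nothing further is read from the gaps. In inulin cow 7 there were 0 counts of the 3p arm beside 467 of the 5p arm, which allows a share of up to 0.642% by the limit of 3 counts and of up to 0.816% by the Wilson interval, both under the value of every cow with a count of the arm. In control cow 2, control cow 6 and inulin cow 4, the 0 counts stood beside 18, 112 and 93 of the 5p arm and allow up to 16.7%, 2.68% and 3.23% by the limit of 3 counts.

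As the log2 ratio of 5p to 3p counts, with 0.5 added to each, the arm ratio was 4.74 in the lowest control cow, 5.15 in the median and 7.81 in the highest. In inulin cows it was 5.54, 6.11 and 9.87, and 7 of 7 were above the control median. That median is again control cow 7, with 2 counts of the 3p arm, so counting error leaves its place uncertain. The means were 5.55 ± 1.15 and 6.77 ± 1.51 (SD, n = 7 each), and the groups overlapped. The highest values, 9.87 in inulin cow 7 and 7.81 in control cow 6, are those of cows with 0 counts of the 3p arm and depend on the number added.

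**Figure D5:**
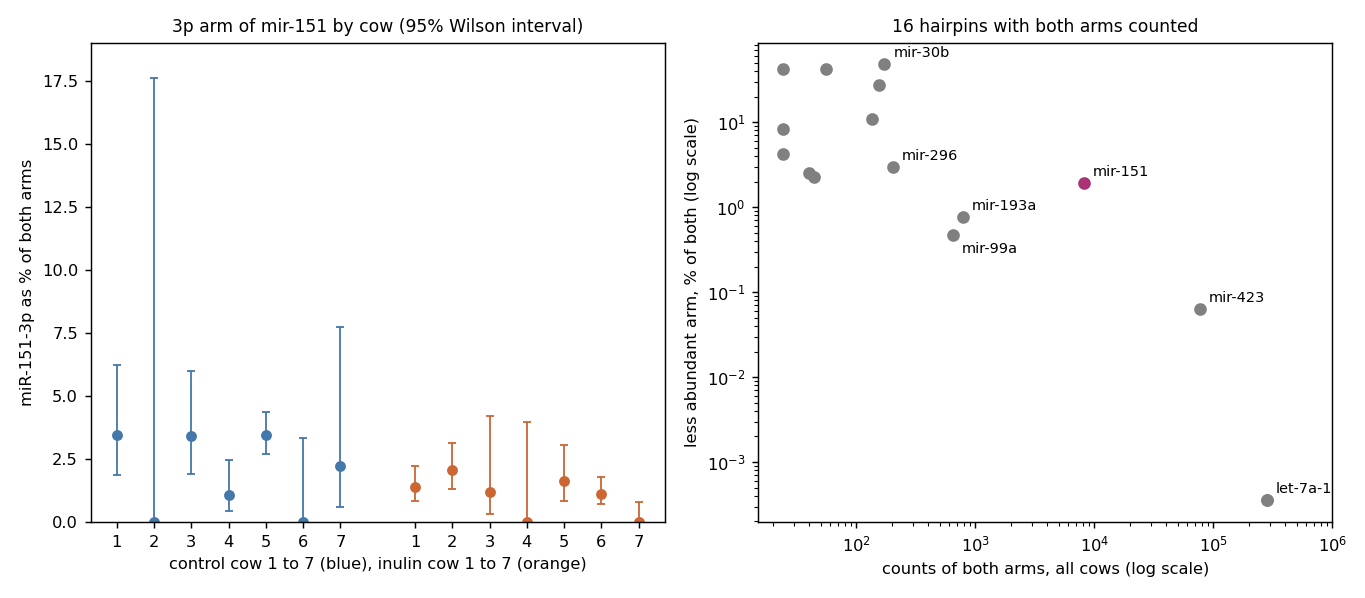
Left, miR-151-3p as percent of the counts of both mir-151 arms in each cow with its 95% Wilson interval. Right, the less abundant arm as percent of both against the counts of both arms over all cows, on log axes, for 16 hairpins, with mir-151 at 1.92%.

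Both arms were listed, with at least 20 counts together, for 16 hairpins, and mir-151 had the 4th highest sum. The less abundant arm had a median of 2.74% of both, and mir-151 at 1.92% was the 6th lowest. Hairpins without both arms listed by name could not enter, so this rank holds among the 16 only. Each listed arm had at least 1 count, so hairpins with low sums could not reach a low percent. At mir-29d, with 24 counts in all, the 1 count of the 3p arm was already 4.17%. The median and the rank are thus set in part by depth. Of the 16, 10 had more counts of the 5p arm and 6 of the 3p arm. The hairpins nearest to mir-151 in summed counts were mir-193a, with 776 counts of the 5p and 6 of the 3p arm (0.767%), mir-99a, with 641 and 3 (0.466%), mir-296, with 6 and 196 (2.97%), and mir-30b, with 82 and 90 (47.7%). The more abundant mir-423 had 48 counts of the 3p arm beside 76417 of the 5p arm (0.0628%). At let-7a-1 and let-7a-3, which share their reads and are each counted among the 16, 1 count of the 3p arm stood beside 281730 and 281751. miR-151-3p thus had more counts than miR-423-3p although its partner arm had far fewer than miR-423-5p.

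miR-28 had at least 1 count in 8 of 14 cows, 4 in each group, and at least 3 counts in 6, of which 2 were control and 4 inulin cows. Its counts were 1, 0, 0, 8, 5, 1 and 0 in control cows 1 to 7 and 10, 9, 0, 0, 0, 3 and 7 in inulin cows 1 to 7. The highest share, 0.00932% in inulin cow 7, came from a library of 75102 counts, while the deepest library, control cow 5, reached 0.0012%. The means were 0.00148% ± 0.00179 in control cows and 0.00298% ± 0.00365 in inulin cows (SD, n = 7 each), with overlap. The edgeR fit gave a log2 fold change of 0.65 with a standard error of 1.13 (adjusted p = 0.985 from edgeR), and it was -0.039 with limma-voom. The standard error was larger than the fold change in the edgeR fit, and the sign differed between these tools. In mean share miR-28 stood between miR-429 and miR-362-5p above and miR-183 and miR-2284h-5p below, at 0.00212% to 0.00238%, each found in 5 to 7 cows.

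The 2 low members did not always appear together. Both had at least 1 count in 6 cows, all with totals of at least 74260 counts, and neither in control cow 2 and inulin cow 4, the 2 shallowest libraries. In 4 cows miR-151-3p was found without miR-28, among them inulin cow 5, where 0 of 112974 counts of miR-28 allow a share of up to 0.00266%. In control cow 6, with 1 count, and inulin cow 7, with 7, miR-28 was found without miR-151-3p. Inulin cow 7 held the highest share of miR-28 of all cows and 0 counts of miR-151-3p. Control cow 4, with the lowest share of miR-151-5p, had the highest share of miR-28 of the control cows, 0.00451%.

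The log2 ratio of miR-151-5p to miR-28, with 0.5 counts added to both, was 5.21 to 9.29 in control cows (median 7.47) and 5.96 to 10.09 in inulin cows (median 7.55). The means were 7.13 ± 1.46 and 7.75 ± 1.44 (SD, n = 7 each), a difference of 0.62 that was smaller than either SD. Over all cows there were 182 counts of miR-151-5p for each of miR-28, and it was 204.9 with control and 170.4 with inulin. Without control cow 5 the control value was 127.8, below that of the inulin cows, so the order of these sums rested on that cow. Without inulin cow 7 the inulin value was 203.5, close to the control value but still below it.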

How the data were processed

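The authors sequenced the small RNA of milk sEVs, filtered the reads by adapter, length and quality, annotated them with Rfam and miRBase and counted them with miRDeep2. The deposited counts are whole reads for each miRNA/precursor and are not normalized. The deposited rpm, which scale each cow to 1000000, differed from recomputed values by at most 0.005 and were not used further. The deposited total sums the counts of all cows, and the authors list the length of each mature miRNA, which is another unit. All columns of values belonged to a labelled cow. Total counts of 4165 to 415020 limit the precision of the low members.

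The members and lists were chosen with earlier results of these data known. Named were the members, miR-708, miR-95, 16 abundant miRNA, the 5 most and the 2 least like miR-151-5p (equal counts taken as 1), the 2 neighbours in rank on either side, the 4 hairpins nearest in counts and the cell type markers. mir-423 and let-7a among the hairpins, and the miRNA of lowest spread, were named after their values were seen.

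The 210 entries with at least 10 counts in all were tested by edgeR 4.0.16 (quasi-likelihood, R 4.3.3) after TMM scaling, with Benjamini-Hochberg adjustment over all of them. The standard error is the log2 fold change divided by the root of the F statistic. The paper used DESeq2. Exact permutation tests planned for shares and ratios of the members are not given, since the members were chosen with those values known. Intervals are 95% Wilson intervals. DESeq2 1.42.0, limma-voom (limma 3.58.1), other scalings, filters and totals, a block for the cow number and fits without each cow served as alternatives. The fits were also run on counts simulated with the same variability for every entry, unlike these data. No result given here rests on that run. Other tools were Python 3.11.15 with SciPy 1.17.1, pandas 2.3.3, NumPy 2.4.6 and matplotlib 3.10.9.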

Additional observations from a re-analysis of the deposited data

Results flagged for a closer look

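Outlying cows were sought in 12 groups of 7 values (the shares of the members, both log2 ratios and the total count) by the ratio of Dixon, with its critical value at 95%. Chance alone gives about 0.6 such groups, and 2 were found. The share of miR-151-5p in control cow 4, 0.264%, lay far below the other control cows, with a ratio of 0.631. The total count of control cow 5, 415020, lay far above the other control cows, with a ratio of 0.579.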

How the results depend on the processing

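The number of entries called was 9 with DESeq2, 75 without a filter on low counts, 3 with filterByExpr and 7 with the replicate block (1 under an adjusted p of 0.05, no member), and 14 to 22 with each cow left out. The log2 fold change of miR-151-5p was above 0 in 24 of 24 alternatives, from 0.45 to 1.10, with adjusted p from 0.266 to 0.991, and passed the rule in 1 of them, with TMMwsp (1.10). With each cow left out it was 0.45 to 0.91. That of miR-151-3p reversed with TMMwsp (0.068), without let-7 (0.023) and without control replicate 3 (0.20), and was -0.68 to 0.20 with each cow left out. That of miR-28 reversed with limma-voom (-0.039) and was 0.34 to 1.48 with each cow left out. Neither was tested with filterByExpr, whose filter removed both. With the block of cow numbers, which mark different animals, the fold changes were 0.60, -0.68 and 0.15, and no call of a member changed. Deviations of same-numbered cows correlated from -0.33 to 0.26, and 0 of 7 cows correlated best with their own number.

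The difference in the share of miR-151-5p, inulin minus control, was 0.345 percentage points with 1 precursor per mature miRNA, 2.06 without let-7, 0.109 without miR-1246 and miR-423-5p and 0.56 as log2 share. For miR-151-3p, -0.00219 points on all counts, it was 0.00416 without let-7, with the opposite sign, and -0.66 as log2 share. For miR-28, 0.00149 points on all counts, it was 0.0185 without let-7 and -0.064 as log2 share, with the opposite sign. With each cow left out these differences were 0.160 to 0.194, -0.00351 to -0.00094 and 0.000436 to 0.002 points. The arm ratio differed by 1.22, by 0.70 to 1.59 with each cow left out, by 0.81 over the cows with a count of the 3p arm only, where the groups overlapped, and by -0.887 points as percent of the 3p arm. The ratio of miR-151-5p to miR-28 differed by 0.23 to 0.98. The rank of miR-151-5p was 18 among miRNA/precursor pairs and 12 to 13 with each cow left out. The likeness to miR-375 was 0.86 with let-7 left out of the total. Causes were not tested. Depth limits the members with 157 and 44 counts.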
